A study of Homo sapiens with 15 samples.

Results

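Cholesterol synthesis and SREBP genes are a list of 32 human genes, found in the tables by their symbols. They are 7 enzymes of the mevalonate steps, 11 enzymes of the sterol branch, 5 genes of the SREBP machinery, 2 sterol transport genes and 7 genes of fatty acid synthesis. Of the 32 members, 31 were among the 17769 genes of the knockout table and all 32 were among the 60510 genes of the resistance table. NPC1L1, the intestinal cholesterol uptake transporter, was the member absent from the knockout table, and it had 0 to 2 reads per library in the resistance table. It was therefore not tested, and 31 members were tested in each table.

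RNA was sequenced from K562, a BCR-ABL1-positive chronic myeloid leukemia line, in 5 groups of 3 libraries. In the knockout table, EV cells carried an empty vector and were wild type for both HSP90 genes. HSP90α-KO cells had HSP90AA1 targeted, and HSP90β-KO cells had HSP90AB1 targeted. These 3 groups were without drug. The knockouts were made with lentiviral Cas9 and guide RNA, fluorescence sorting and monoclonal selection. The supplement describes the guides as added to K562 cells that already expressed Cas9 after puromycin selection. It does not name the EV cells there. In the resistance table, wild type parental cells were kept long term in DMSO, and PUHr cells were selected long term in rising doses of PU-H71, an inhibitor of the HSP90 N-terminal ATP pocket. Clones were then picked from the resistant cells. The labels do not give the number of clones per group, so clone and genotype, or clone and drug selection, cannot be told apart. Reads on genes ran from 19594381 to 26216730 per library in the knockout table and from 21584840 to 24477692 in the resistance table. Levels are CPM, the reads of a gene scaled to library size, differences are log2 fold changes, and a gene was called at an adjusted p under 0.05 in limma, fitted across all tested genes of a table. K562 is a grown line, but in bulk RNA fewer cells with a transcript and less of it per cell cannot be told apart.

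Cholesterol is built from acetyl-CoA through mevalonate and the isoprenoid units to squalene, which the sterol branch closes into lanosterol and trims to cholesterol. The transcription factors SREBP-1 and SREBP-2, encoded by SREBF1 and SREBF2, are held in the endoplasmic reticulum by the sterol sensor SCAP and the INSIG proteins. When sterols are scarce, SCAP carries them to the Golgi, where proteases release their active part, which binds sterol regulatory elements together with partners such as NF-Y. SREBP-2 acts mainly on cholesterol genes and SREBP-1c mainly on fatty acid genes.

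The group labels were compared first with the targeted genes. HSP90AA1 stood at 716, 683 and 713 CPM in EV and at 92.6, 88 and 90.8 CPM in HSP90α-KO. All 3 HSP90α-KO libraries lay far below all EV libraries, a log2 fold change of -2.96 (SE 0.029, limma adjusted p 2.6e-30). HSP90AB1 stood at 2823, 2782 and 2812 CPM in EV and at 1939, 1909 and 1889 CPM in HSP90β-KO, with no overlap (log2 fold change -0.55, SE 0.0251, limma adjusted p 1.3e-15). The other paralog was higher in each knockout. HSP90AB1 read 3267, 3310 and 3344 CPM in HSP90α-KO (log2 fold change 0.24, SE 0.0251, limma adjusted p 8.6e-09), a difference that shrank to 0.055 under quantile normalization. HSP90AA1 read 1218, 1190 and 1210 CPM in HSP90β-KO (log2 fold change 0.78, SE 0.029, limma adjusted p 2.1e-17). Both sets of libraries lay above all EV libraries. HSP90AA1 read 1721, 1720 and 1696 CPM in parental and 1559, 1592 and 1553 CPM in PUHr, and HSP90AB1 read 4578, 4497 and 4517 CPM in parental and 3953, 3760 and 3828 CPM in PUHr. Both were lower in every PUHr library (log2 fold changes -0.13 and -0.24, limma adjusted p 4.7e-05 and 1.9e-07), and both signs turned under quantile normalization, to 0.081 and 0.047. These are RNA values. The study reported higher HSP90α protein by western blot in PUHr cells re-treated with PU-H71, and a copy number gain spanning HSP90AA1.

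Of 9 K562 markers, 8 were in the knockout table, all but the embryonic globin gene HBE1. Their summed level was 543 CPM in EV, 505 CPM in HSP90α-KO and 456 CPM in HSP90β-KO, with GATA1 the most abundant. In the resistance table the 9 summed to 1409 CPM in parental and 1259 CPM in PUHr, with HBZ the most abundant. Of 8 tested K562 markers, 3 were higher and 5 lower in HSP90α-KO, 5 were lower in HSP90β-KO, and 3 were higher and 4 lower in PUHr. Of all tested genes, 27.5% were called higher and 26.6% lower in HSP90α-KO, 17.2% each way in HSP90β-KO, and 25.6% higher and 25.8% lower in PUHr. The globin genes HBG2 (-1.22) and HBZ (-1.04) passed 2-fold in HSP90α-KO. T cell markers, led by CD3D, summed to 8.68 CPM in EV, 3.99 CPM in HSP90α-KO, 18.2 CPM in HSP90β-KO, 10.7 CPM in parental and 8.33 CPM in PUHr. Liver and adipose markers, led by ALB in each group but PUHr, were low, at 0.908 CPM in EV, 1.91 CPM in HSP90α-KO, 0.0707 CPM in HSP90β-KO, 1.26 CPM in parental and 0.0814 CPM in PUHr. The part of these differences in the lipid gene results was not tested.

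In HSP90α-KO the genes for making cholesterol were lower almost throughout. Of 18 enzymes of the mevalonate steps and the sterol branch, 16 fell, against 26.6% of all tested genes called lower and 27.5% called higher. HMGCS1, which condenses acetyl-CoA units into HMG-CoA, was 1.89-fold lower, and SQLE, the squalene epoxidase, was 1.6-fold lower. Among fatty acid genes the desaturases SCD and FADS1 were higher and the elongase ELOVL6 lower. Over all 31 tested members, 20 were lower, 3 higher and 8 not called, and the members' median log2 fold change was -0.20 beside -0.01 for all tested genes. No member passed 2-fold, a size that 10.3% of all tested genes passed in this comparison, and HMGCS1 came closest.

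All 7 mevalonate enzymes fell, with a median log2 fold change of -0.33. HMGCS1 (ENSG00000112972, chromosome 5, 43287470 to 43313512, minus strand) read 141, 128 and 140 CPM in EV and 67.1, 75.3 and 74.9 CPM in HSP90α-KO. Every HSP90α-KO library was below every EV library, at a log2 fold change of -0.92 (SE 0.0434, limma adjusted p 7.6e-16). The smallest fall of the 7 was that of FDPS, the farnesyl diphosphate synthase, at -0.13 (limma adjusted p 0.0043).

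In the sterol branch 9 of 11 enzymes fell, and the median was -0.46. SQLE read 179, 174 and 182 CPM in EV and 112, 112 and 110 CPM in HSP90α-KO, a tight and separate pair of groups (log2 fold change -0.68, SE 0.031, limma adjusted p 3.7e-16). LSS, which closes the ring to lanosterol, read 19.9, 25.7 and 23.9 CPM in EV and 13.7, 15.1 and 12 CPM in HSP90α-KO. Its EV libraries were spread, with replicate 1 lowest, yet none reached down to the knockout range (log2 fold change -0.76, SE 0.083, limma adjusted p 1.4e-08). NSDHL, which acts in removing the C4 methyl groups, read 49.5, 49.8 and 48.2 CPM in EV and 30.9, 30.7 and 28.8 CPM in HSP90α-KO. The groups did not overlap (log2 fold change -0.70, SE 0.0445, limma adjusted p 3.2e-13). CYP51A1 and SC5D were the enzymes of this branch not called, each at 0.07. TM7SF2, a sterol reductase, was called at -0.21 but not without EV replicate 2 or without HSP90α-KO replicate 3, each of which leaves 8 of 11 in the branch, nor under 5 other alternatives.

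The regulators differed from EV by less than most enzymes did, and 1 of 5 was called. SREBF2 read 246, 252 and 249 CPM in EV and 231, 222 and 211 CPM in HSP90α-KO, without overlap (log2 fold change -0.17, SE 0.0332, limma adjusted p 1.0e-04). SREBF1 read 144, 169 and 157 CPM in EV and 156, 145 and 133 CPM in HSP90α-KO. Those ranges overlapped, and SREBF1 was not called at -0.11 (limma adjusted p 0.05 after rounding). Without EV replicate 1 it was called at -0.171, and without HSP90α-KO replicate 1 at -0.17, as it was under 6 other alternatives, while without HSP90α-KO replicate 3 its value shrank to -0.054 (adjusted p 0.33, the highest of its alternatives). SCAP read 105, 109 and 111 CPM in EV and 109, 101 and 96.1 CPM in HSP90α-KO, overlapping, at -0.08 (limma adjusted p 0.092), and was called at -0.13 without HSP90α-KO replicate 1 and at -0.125 under quantile normalization. INSIG1, itself an SREBP target, read 102, 103 and 95.8 CPM in EV and 103, 101 and 107 CPM in HSP90α-KO, also overlapping (log2 fold change 0.05, limma adjusted p 0.29). INSIG2 read 10.8, 10.1 and 11 CPM in EV and 10.5, 9.58 and 12.3 CPM in HSP90α-KO, overlapping as well. Its log2 fold change was 0.02 (limma adjusted p 0.89), and its sign turned without EV replicate 2 or HSP90α-KO replicate 3.

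STARD4, SCD and FADS1 went the other way. STARD4, a carrier that moves cholesterol between membranes, read 71, 65.7 and 65.4 CPM in EV and 88.8, 90.7 and 96.6 CPM in HSP90α-KO. All 3 knockout libraries were above all EV libraries (log2 fold change 0.45, SE 0.0424, limma adjusted p 1.0e-09). SCD, the stearoyl-CoA desaturase, read 1065, 1040 and 1055 CPM in EV and 1461, 1419 and 1471 CPM in HSP90α-KO, again without overlap (log2 fold change 0.46, SE 0.0261, limma adjusted p 3.4e-14, and 0.283 under quantile normalization). FADS1, the delta-5 desaturase, read 276, 286 and 282 CPM in EV and 325, 328 and 336 CPM in HSP90α-KO, also apart (log2 fold change 0.23, SE 0.0285, limma adjusted p 1.6e-07). In fatty acid synthesis 2 of 7 members rose (SCD and FADS1), 3 fell (ELOVL6, ACACA and ACLY) and 2 were not called, FASN at 0.01, with a sign that turned under 4 alternatives, and FADS2, the delta-6 desaturase, at 0.07. Of all tested genes 27.5% were called higher, a share near that of this group, and 26.6% lower. ELOVL6, which lengthens 16-carbon fatty acids, was at -0.60 (SE 0.0366, limma adjusted p 1.3e-13).

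**Figure D1:**
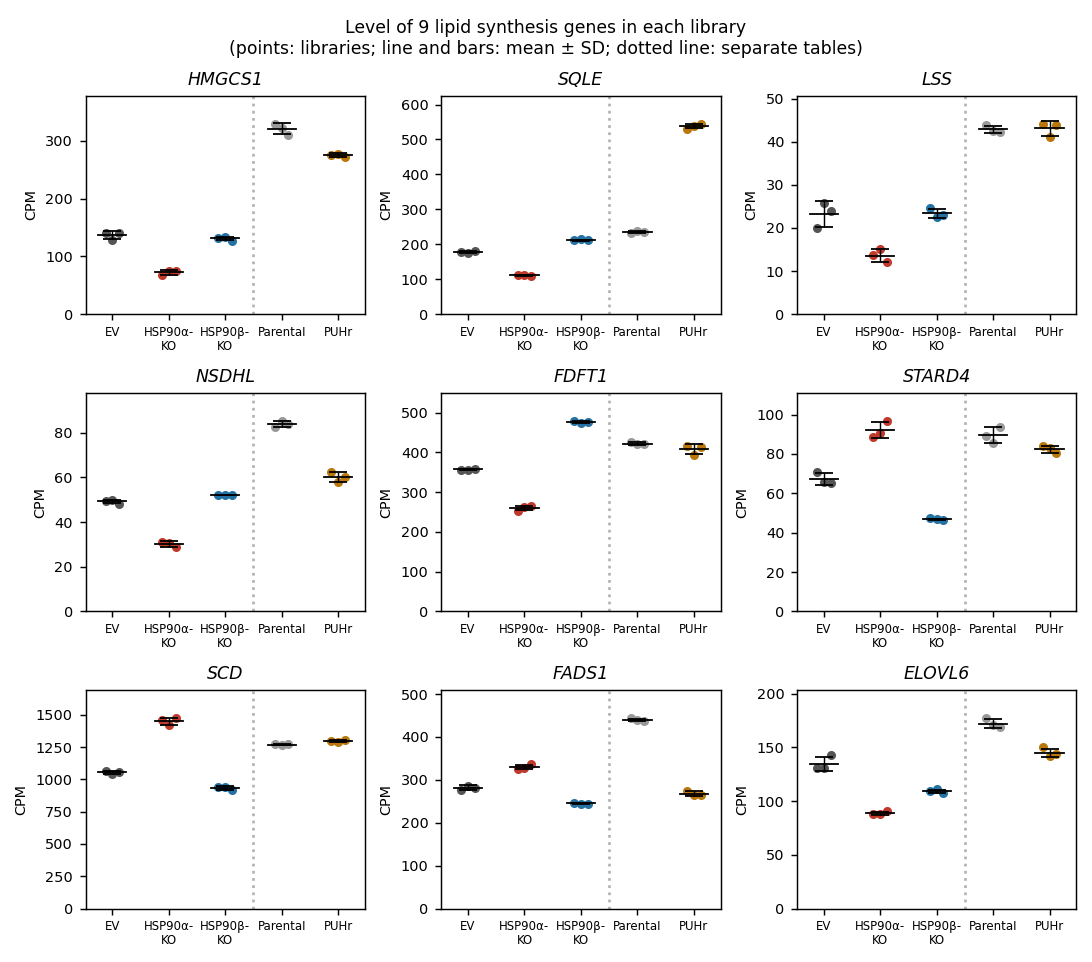
CPM of 9 members in each library of the 5 groups (points), with the group mean and SD (n = 3); the dotted line separates the 2 tables, which were normalized apart. HMGCS1, SQLE, LSS and NSDHL are lowest in HSP90α-KO among the knockout groups, and SQLE is highest in PUHr.

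Promoter sequence was also compared. The members are listed as cholesterol and SREBP genes, and SREBP binds with NF-Y, so the motif shares are not independent of the list. RefSeq windows of 250 bases before a gene's start (GRCh38.p14) were available for 28 of 32 members, in 38 windows, and not for ACAT2, FDFT1, SQLE and FASN. The NF-Y motif CCAAT, searched on both strands, was in 20 of 28 members (71.4%) and in 37.0% of 27305 genes with such windows. Among members whose windows were used, it was in 15 of the 17 that fell in HSP90α-KO and in 4 of the 10 other tested ones. The GC box GGGCGG was in 26 of 28 members (92.9%) and in 46.2% of all genes, and in 16 of the same 17 and 10 of the same 10 members. The sterol regulatory element form TCACNCCAC was in 1 member, SREBF2, at 133 to 125 bases before its start, a falling member, and in 1.09% of all genes. Genes with several windows had more bases to match. By window, NF-Y was in 24 of 38 windows of members and 32.0% of all 35116 windows, the GC box in 33 of 38 and 42.6%, and the sterol element in 1 of 38 and 0.883%. A match marks letters, not a bound site, and its absence says nothing of the factor.

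Windows are printed for the members with the largest falls and rises in HSP90α-KO and for SREBF2, the holder of the sterol element, each cut where the annotated gene begins. They lie on GRCh38.p14 at chr5:43313513-43313662 (HMGCS1, minus strand), chr21:46228825-46229024 (LSS, minus), chrX:152830813-152830966 (NSDHL, plus), chr22:41832855-41833104 (SREBF2, plus), chr5:111512591-111512785 (STARD4, minus) and chr10:100346983-100347232 (SCD, plus). Each reads 5′ to 3′ on the gene's strand. Capitals mark CCAAT, or ATTGG where it lies on the opposite strand, and in SREBF2 also the sterol element. In NSDHL a pair of matches on opposite strands overlap. The motif counts used whole windows, including bases inside annotated genes. A match in HMGCS1, 100 to 96 bases before its start, and a match in NSDHL, at 84 to 80, were therefore counted but not printed.
HMGCS1: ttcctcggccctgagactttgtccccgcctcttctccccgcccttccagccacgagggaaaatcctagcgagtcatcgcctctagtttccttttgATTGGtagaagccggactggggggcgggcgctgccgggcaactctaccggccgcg
LSS: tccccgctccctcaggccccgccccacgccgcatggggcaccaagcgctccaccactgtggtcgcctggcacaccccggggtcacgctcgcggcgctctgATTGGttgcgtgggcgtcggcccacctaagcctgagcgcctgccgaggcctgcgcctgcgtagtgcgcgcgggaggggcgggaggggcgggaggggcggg
NSDHL: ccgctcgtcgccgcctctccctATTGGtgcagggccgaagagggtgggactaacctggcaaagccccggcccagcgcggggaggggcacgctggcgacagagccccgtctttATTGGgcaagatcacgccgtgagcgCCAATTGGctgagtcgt
SREBF2: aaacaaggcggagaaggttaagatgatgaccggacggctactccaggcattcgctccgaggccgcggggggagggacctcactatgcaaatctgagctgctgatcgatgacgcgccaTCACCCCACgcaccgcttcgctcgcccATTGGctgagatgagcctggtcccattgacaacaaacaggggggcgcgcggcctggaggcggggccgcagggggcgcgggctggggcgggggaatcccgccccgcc
STARD4: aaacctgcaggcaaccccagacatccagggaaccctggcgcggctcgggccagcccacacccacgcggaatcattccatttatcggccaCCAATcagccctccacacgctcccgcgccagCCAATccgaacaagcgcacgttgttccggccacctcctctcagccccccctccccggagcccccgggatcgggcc
SCD: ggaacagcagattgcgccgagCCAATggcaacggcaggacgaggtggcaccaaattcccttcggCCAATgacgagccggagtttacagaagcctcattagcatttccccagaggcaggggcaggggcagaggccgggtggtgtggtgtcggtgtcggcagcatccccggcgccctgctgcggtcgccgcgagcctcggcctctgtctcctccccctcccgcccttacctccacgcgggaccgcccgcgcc
Of the 3 rising members, STARD4 and SCD carry the NF-Y letters, and FADS1, not printed, has none in its window.

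**Figure D2:**
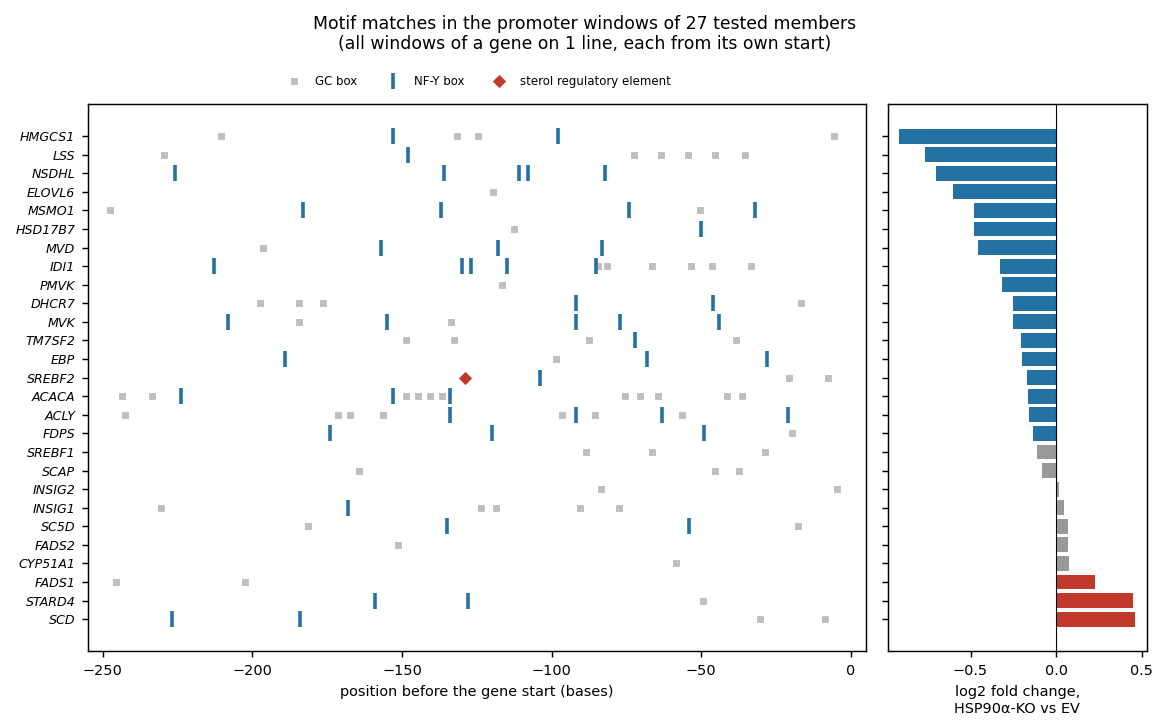
Positions of the 3 motifs before the start (x axis, bases) in the windows of the 27 tested members whose windows were used, ordered by log2 fold change in HSP90α-KO (bars). NF-Y matches lie in most falling members and in STARD4 and SCD among the rising ones, and the sterol element appears in SREBF2.

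In HSP90β-KO the same enzymes were mostly near EV. Of 31 members 5 were higher, 7 lower and 19 not called, beside 17.2% of all tested genes called higher and 17.2% lower, so the shares of the members are near the background. Of the 18 cholesterol enzymes, 3 rose (FDFT1, SQLE and TM7SF2) and 2 fell (IDI1 and SC5D). The median of the members was -0.03 beside 0.00 for all tested genes. No member passed 2-fold, as 4.48% of all tested genes did, and STARD4 came closest. With median centring, the share of called genes that were higher moved from 50.1% to 36.7%, so the direction counts of all genes rest on the scaling here. ACACA, a rising fatty acid gene in this comparison, was not called under median centring or with no intensity trend.

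FDFT1, the squalene synthase that commits the pathway to sterols, read 355, 356 and 359 CPM in EV and 478, 473 and 475 CPM in HSP90β-KO. The libraries within each group were close and the groups far apart (log2 fold change 0.41, SE 0.0277, limma adjusted p 3.2e-12). SQLE, the next enzyme, read 212, 214 and 211 CPM in HSP90β-KO, above all EV libraries (log2 fold change 0.25, SE 0.031, limma adjusted p 3.0e-07). TM7SF2 read 12.1, 14 and 11.9 CPM in EV and 16.3, 17.4 and 18.7 CPM in HSP90β-KO, without overlap (log2 fold change 0.46, SE 0.082, limma adjusted p 6.4e-05). HMGCS1 was at -0.06 and LSS at 0.02, neither called, and the sign of LSS turned under 4 alternatives. SC5D, the lathosterol desaturase, read 33.6, 30.9 and 33.8 CPM in EV and 28.6, 28.4 and 28.7 CPM in HSP90β-KO, all below EV (log2 fold change -0.20, SE 0.0532, limma adjusted p 0.0048).

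STARD4 read 47.2, 46.8 and 46.6 CPM in HSP90β-KO, below the 65.4 CPM of the lowest EV library (log2 fold change -0.52, SE 0.0424, limma adjusted p 1.3e-10). ELOVL6 read 131, 131 and 143 CPM in EV and 109, 111 and 108 CPM in HSP90β-KO, also apart (log2 fold change -0.31, SE 0.0366, limma adjusted p 1.6e-07). FADS1 read 247, 244 and 243 CPM in HSP90β-KO, below all EV libraries (log2 fold change -0.20, SE 0.0285, limma adjusted p 2.7e-06). Of the 7 fatty acid genes 3 fell (SCD, FADS1 and ELOVL6) and 1 rose (ACACA). Among the regulators, INSIG2 read 10.8, 10.1 and 11 CPM in EV and 12.8, 13.4 and 13.3 CPM in HSP90β-KO, without overlap (log2 fold change 0.31, SE 0.0854, limma adjusted p 0.0062). SREBF2 read 237, 230 and 225 CPM in HSP90β-KO, below EV (log2 fold change -0.11, SE 0.0332, limma adjusted p 0.011), and its call was lost without HSP90β-KO replicate 3 (adjusted p 0.074) and with no intensity trend (adjusted p 0.1, the highest of its alternatives). SREBF1 read 162, 162 and 167 CPM in HSP90β-KO, SCAP read 106, 104 and 108 CPM, and INSIG1 read 93.8, 98.3 and 93.7 CPM. Each of these overlapped EV and was not called, at log2 fold changes of 0.07, -0.03 and -0.07 (limma adjusted p 0.3, 0.62 and 0.15). With median centring INSIG1 was called, at -0.113.

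The knockouts share their EV controls, and they were therefore also compared with each other. HSP90α-KO was lower than HSP90β-KO in 21 of 31 members and higher in 6, beside 29.8% of all tested genes called lower and 30.1% called higher. Of the 18 cholesterol enzymes 16 were lower in HSP90α-KO and 1, SC5D, was higher. The members' median was -0.22 beside -0.01 for all tested genes. SQLE differed by -0.93 (SE 0.031, limma adjusted p 2.4e-19) and FDFT1 by -0.87 (SE 0.0277, limma adjusted p 8.0e-20), with HSP90α-KO below EV and HSP90β-KO above it in every library of both genes. STARD4 differed by 0.97 (SE 0.0424, limma adjusted p 7.5e-17) and SCD by 0.64 (SE 0.0261, limma adjusted p 2.0e-17, and 0.4 under quantile normalization), with HSP90α-KO above EV and HSP90β-KO below it. For HMGCS1 the difference was -0.85 (SE 0.0434, limma adjusted p 2.2e-15), with HSP90β-KO libraries of 132, 133 and 127 CPM inside or near the EV range.

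In PUHr cells 15 of 31 members were called against parental cells, most of them lower. SQLE rose 2.29-fold, and was the 1 member past 2-fold, a size that 10.1% of all tested genes passed. FADS1 was 1.64-fold lower and NSDHL 1.39-fold lower. Of 31 members 3 were higher, 12 lower and 16 not called, beside 25.6% of all tested genes called higher and 25.8% lower. With median centring the share of called genes that were higher moved from 49.8% to 40.3%. Without PUHr replicate 1, 6 members were called higher, the added ones being MSMO1, CYP51A1 and SREBF1. Of the 18 cholesterol enzymes 2 rose and 6 fell, and the members' median was -0.04 beside 0.00 for all tested genes.

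SQLE (ENSG00000104549, chromosome 8, 124998497 to 125022283, plus strand) read 232, 237 and 235 CPM in parental and 531, 540 and 544 CPM in PUHr. All 3 PUHr libraries stood far above all parental libraries (log2 fold change 1.20, SE 0.0221, limma adjusted p 1.5e-14). The enzymes on either side of it in the pathway were not called: FDFT1 was at -0.05 and LSS at 0.00. FDFT1 was called lower under median centring and turned to 0.038 under quantile normalization, and the sign of LSS turned under 6 alternatives. SC5D read 36, 37.1 and 37.2 CPM in parental and 40.4, 41 and 40.8 CPM in PUHr, a small but separate rise (log2 fold change 0.15, SE 0.0395, limma adjusted p 0.0054). NSDHL read 82.5, 85.1 and 83.7 CPM in parental and 62.4, 57.8 and 60.1 CPM in PUHr, all lower (log2 fold change -0.48, SE 0.0359, limma adjusted p 3.9e-08). EBP, the sterol isomerase, read 24.1, 27.9 and 27.8 CPM in parental and 20.8, 20.9 and 20.6 CPM in PUHr, without overlap (log2 fold change -0.35, SE 0.0602, limma adjusted p 1.8e-04). TM7SF2 read 12.2, 11.9 and 12.1 CPM in parental and 10.4, 9.12 and 10.4 CPM in PUHr, also lower in each library (log2 fold change -0.27, SE 0.0766, limma adjusted p 0.008, and 0.063, the highest of its alternatives, with no filter on low values). HMGCS1 was lower by a smaller step, at -0.22 (SE 0.0255, limma adjusted p 3.6e-06).

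Among the regulators, SREBF2 read 225, 219 and 220 CPM in parental and 263, 258 and 261 CPM in PUHr, all higher (log2 fold change 0.24, SE 0.0235, limma adjusted p 8.6e-07). INSIG1 read 185, 192 and 187 CPM in parental and 162, 169 and 164 CPM in PUHr, all lower (log2 fold change -0.19, SE 0.0273, limma adjusted p 3.8e-05). SREBF1 read 162, 167 and 155 CPM in parental and 162, 189 and 171 CPM in PUHr, SCAP read 124, 119 and 116 CPM and then 109, 125 and 118 CPM, and INSIG2 read 11.2, 10.7 and 11.2 CPM and then 11.9, 12.9 and 11 CPM. All 3 genes overlapped between the groups and were not called, at log2 fold changes of 0.10, -0.03 and 0.11 (limma adjusted p 0.069, 0.63 and 0.24). SREBF1 was called without PUHr replicate 1, at 0.154, under quantile normalization, at 0.142, and with a replicate block, at 0.104. Without PUHr replicate 2 the SREBF1 value shrank to 0.044. The sign of SCAP turned without PUHr replicate 1, to 0.026. FADS1 read 443, 440 and 437 CPM in parental and 275, 264 and 264 CPM in PUHr, a wide gap (log2 fold change -0.72, SE 0.0234, limma adjusted p 4.2e-12). Of the 7 fatty acid genes 4 fell (FADS1, FASN, ACLY and ELOVL6), and STARD4 fell at -0.12 (limma adjusted p 0.014). STARD4 was not called without parental replicate 3, without PUHr replicate 3, with no filter on low values, with no intensity trend or at an adjusted p under 0.01. FASN, at -0.27 (-0.35 to -0.095 over the alternatives), was not called with no filter, under quantile normalization or with no intensity trend, and FDPS, at -0.13, not with no filter or no trend.

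**Figure D3:**
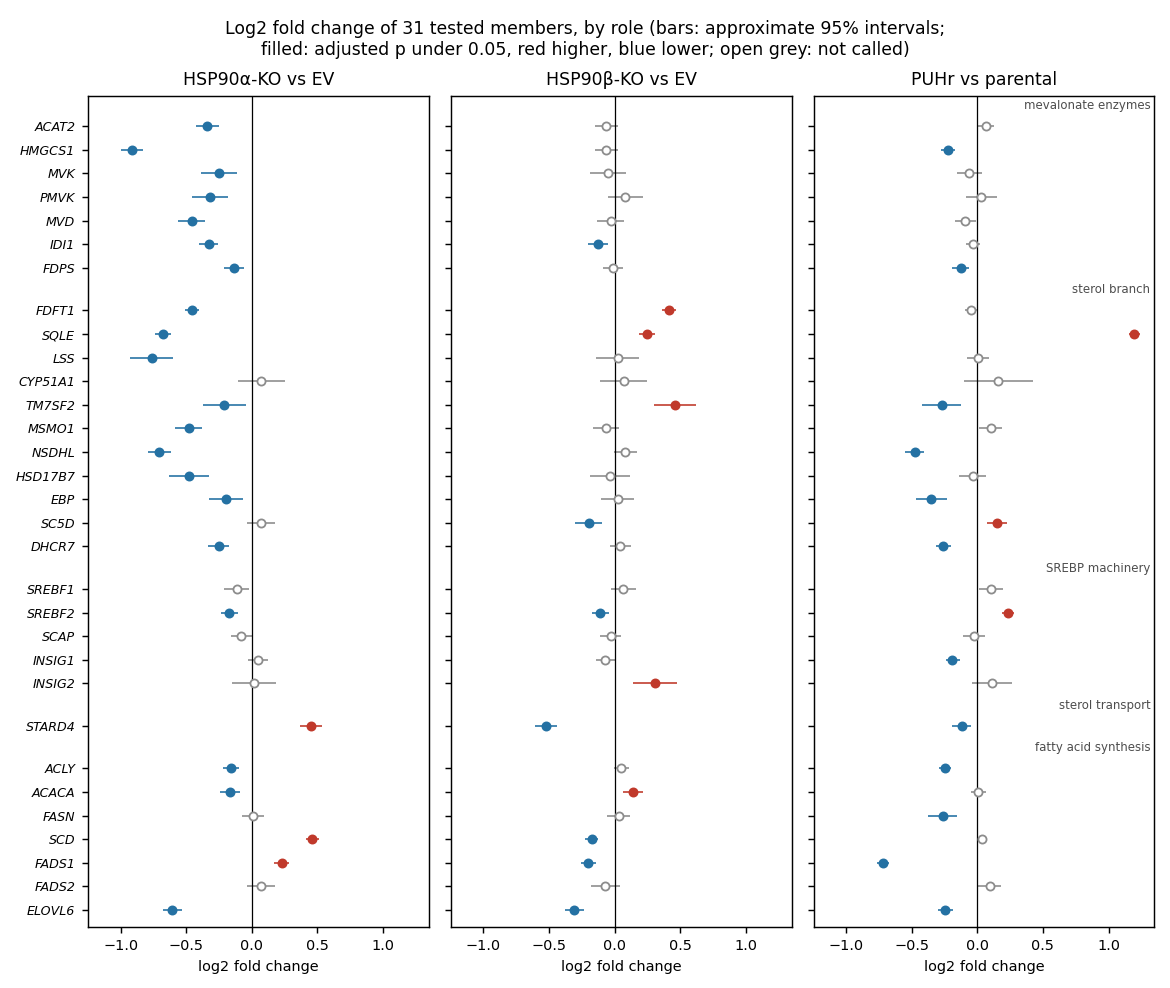
Log2 fold change of the 31 tested members, grouped by role, in HSP90α-KO and HSP90β-KO against EV and in PUHr against parental, with approximate 95% intervals (n = 3 per group); filled points were called. The cholesterol enzymes other than CYP51A1 and SC5D sit left of 0 in HSP90α-KO, and SQLE stands farthest right in PUHr, at 1.20.

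Neighbouring genes on the chromosome were compared, since a block that moves as a whole moves its members too. For each member the median log2 fold change was taken over up to 20 tested genes on each side. In HSP90α-KO, 19 of 20 falling members lay below that median and 2 of 3 rising members above it. The exceptions were NSDHL, at -0.70 with its neighbours at -0.91, and SCD, at 0.46 with its neighbours at 0.57. HMGCS1 neighbours were at -0.09, LSS neighbours at -0.15 and SQLE neighbours at -0.01. In HSP90β-KO all 7 falling members lay below and all 5 rising members above their neighbours, and FDFT1 neighbours were at 0.26. In PUHr 11 of 12 falling members lay below theirs, all but FDPS, and SQLE neighbours were at 0.22 beside 1.20 for SQLE. Only called members were counted, and most neighbour medians lay near 0. The calls therefore largely set these counts, which cannot separate members from their blocks. The part of such blocks, including any change in copy number, was not tested.

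**Figure D4:**
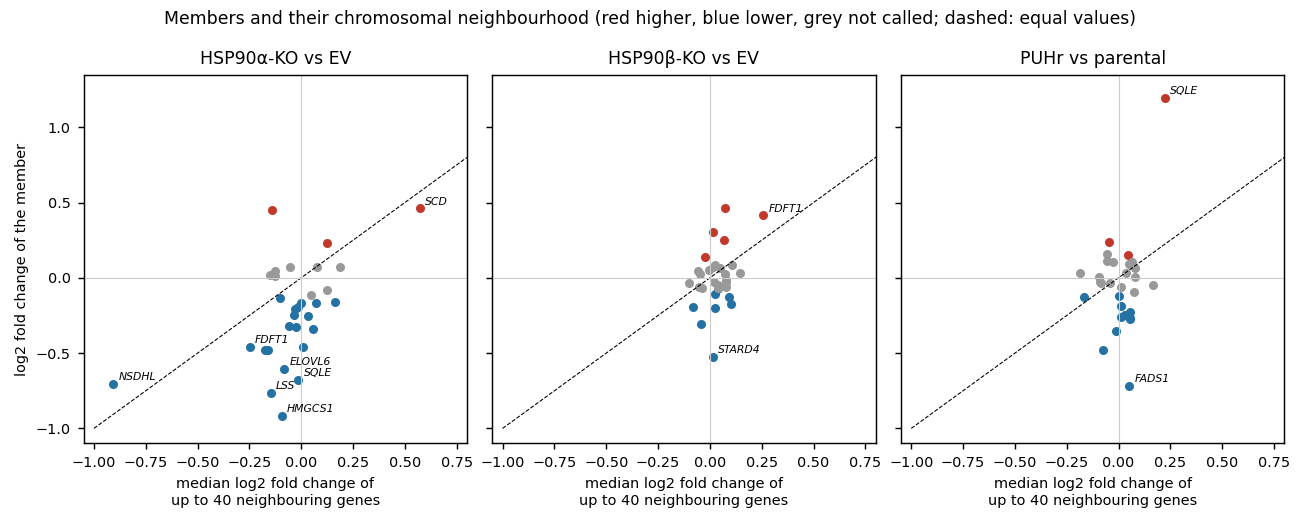
Log2 fold change of each member (y axis) against the median of up to 40 tested neighbours on its chromosome (x axis), in 3 comparisons. Most points lie near 0 on the x axis, while NSDHL (-0.91) and SCD (0.57) stand far out in HSP90α-KO.

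Some members share exon bases with other annotated genes in GENCODE v44, which bears on their counts because the strand setting and annotation release of the counting are not stated. An antisense RNA covers 37.7% of HMGCS1 exon bases. Same-strand annotations share 68.2% of CYP51A1 and 36.4% of EBP exon bases. Genes on the opposite strand share 18.6% of FDPS (RUSC1-AS1), 17.2% of ACAT2 (TCP1) and 15.0% of IDI1 (IDI2-AS1) exon bases, and the other members share less than these. The part of these overlaps in the values was not tested.

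Related genes outside the list were higher and lower. In HSP90α-KO, of 17 further SREBP targets and lipogenic genes 6 rose and 4 fell, of 10 genes of the non-sterol isoprenoid branch 3 rose and 1 fell, and of 5 tested genes of sterol efflux and LXR 2 rose and 1 fell. Of all tested genes 27.5% were called higher and 26.6% lower. ACACB, the mitochondrial acetyl-CoA carboxylase, read 1.71, 1.64 and 1.49 CPM in EV and 21, 20.8 and 21 CPM in HSP90α-KO, far apart (log2 fold change 3.63, SE 0.171, limma adjusted p 7.0e-16, and 1.973 with 5 CPM added). ABCA1, the cholesterol efflux pump, averaged 0.999 CPM in EV and 2.92 CPM in HSP90α-KO (log2 fold change 1.49, SE 0.235, limma adjusted p 6.3e-06, and 0.401 with 5 CPM added), on 16 to 26 reads per EV library. MBTPS2, the site-2 protease that releases SREBP, averaged 29.2 CPM in EV and 53.1 CPM in HSP90α-KO (log2 fold change 0.86, limma adjusted p 2.3e-13, neighbours at 0.35). All 3 HSP90α-KO libraries were above all EV libraries for these genes. MBTPS1, the site-1 protease that cuts SREBP first, was named after its values were seen. It was lower, from 143 CPM in EV to 109 CPM in HSP90α-KO, with no overlap (log2 fold change -0.39, SE 0.0318, limma adjusted p 6.4e-11).

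In HSP90β-KO the same lists gave 7 rising and 6 falling of 17, 3 and 2 of 10, and 1 falling of 5, beside 17.2% of all tested genes in either direction. ACACB had 3, 4 and 6 reads there against 34 to 39 in EV (log2 fold change -2.65, limma adjusted p 1.7e-12, and -0.351 with 5 CPM added). ACSL3, a long-chain acyl-CoA synthetase, was at -0.75 with its neighbours at -0.55, and TMEM97, an SREBP target, was at 0.47. In PUHr the lists gave 4 rising and 9 falling of 16, 1 and 1 of 10, and 2 falling of 5, beside 25.6% of all tested genes called higher and 25.8% lower. NPC2, which hands cholesterol out of the lysosome, averaged 8.03 CPM in parental and 19.8 CPM in PUHr (log2 fold change 1.29, SE 0.0727, limma adjusted p 1.6e-09). ACACB was at -2.22, from 2.79 to 0.535 CPM, and at -0.493 with 5 CPM added.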

How the data were processed

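RNA-seq libraries of 5 K562 groups, 3 each, were read from 2 gene tables whose values are log2 CPM (log2), deposited by the authors. Their methods give a stranded mRNA kit, single reads, alignment with STAR to GRCh38, counting with featureCounts and normalization with edgeR, versions not given. Whole reads were recovered from the values to within 0.0015 reads, with a prior count of 2 reads. One CPM step per read is 0.0381 to 0.0518, which limits precision for low genes only. Entries without an identifier (30 and 114; at most 0.0363% of reads) were left out. A gene was tested if 3 libraries or more had log2 CPM of at least -1 (17039 and 16503 genes) with limma 3.58.1 in R 4.3.3 (lmFit, contrasts, eBayes with an intensity trend), with 1 fit per table and Benjamini-Hochberg adjustment over all tested genes. The steps were tested on simulated data. Replicate numbers do not pair libraries across groups (r from -0.0481 to 0.0449 across genes, which are not independent replicates), and the study's captions call the replicates independent, while the labels do not say whether they were separate cultures. Full values are given for HSP90AA1, HSP90AB1, the SREBP machinery, and the 4 largest rises and 4 largest falls among called members per comparison with a control; of the other lists, the 3 largest called changes are named. A marker list, a list of related genes and 1 gene under this rule are not reported here. Any other gene named in a comparison was chosen after its values were seen. Members and lists were chosen with earlier results of these data known. Alternatives were filters, added CPM, quantile normalization, median centring, no trend, a replicate block, a stricter threshold, voom on whole reads, fits of the 6 libraries compared, and each library left out. Motifs and neighbours used RefSeq windows and GENCODE v44.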

Additional observations from a re-analysis of the deposited data

How the results depend on the processing

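Of 50 results for genes under the naming rule, 40 kept their direction and side of the threshold under every alternative run; of 934 alternatives to them 911 left both as they were, 4 lost the call, 14 gained it and 5 turned the sign. No called member changed direction under any alternative run. Of 8 member counts, 7 stayed within 1.5 times. The exception was the members higher in PUHr, 3, which became 5 under quantile normalization and ranged from 3 to 6 when 1 library was left out, with 6 without PUHr replicate 1. Among genes under the naming rule, the signs that turned were INSIG2 in HSP90α-KO (-0.022 without EV replicate 2, -0.082 without HSP90α-KO replicate 3, range -0.082 to 0.097), SCAP in PUHr (0.026 without PUHr replicate 1, range -0.074 to 0.026), and, under quantile normalization, HSP90AA1 (0.081) and HSP90AB1 (0.047) in PUHr; the cause was not tested. Members outside that rule that were not called also turned, among them FASN in HSP90α-KO and LSS in HSP90β-KO and PUHr. Members lower in HSP90α-KO numbered 18 to 22 and members lower in PUHr 8 to 15, the 8 with no filter on low values; 18 and 8 of them, respectively, were called in every setting. With a replicate block, SREBF1 in PUHr became called (0.104), giving 4 members higher in PUHr. Depth limits NPC1L1, ABCA1 and ACACB, which had few reads in some libraries.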

Other observations

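The EV and parental groups are both K562 without a targeted HSP90 gene. They come from tables normalized apart, so their levels are set side by side with no test. HMGCS1 averaged 137 CPM in EV and 321 CPM in parental, and INSIG1 averaged 100 and 188 CPM. Of 31 members 28 were higher in parental, with a median log2 difference of 0.411, beside 0.058 over 15735 genes tested in both tables. Empty vector, any Cas9 and puromycin selection, DMSO, culture and table cannot be told apart in this difference.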
